A study of Mus musculus with 12 samples.

Results

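A set of 10 genes of plasma lipoproteins was followed in mouse liver: the apolipoprotein genes Apoa1, Apoa2, Apoa4, Apoa5, Apob, Apoc2, Apoc3, Apoe and Apom, and Mttp, which encodes the large subunit of microsomal triglyceride transfer protein. They were taken by symbol from the gene column of the authors' deposited table, and all 10 were found, each at 1 locus that carries no other name, of 27109 loci in all. None was among the 8 loci whose test failed for too many fragments and whose level is then listed at 0, and each was tested in all 6 deposited comparisons.

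The livers came from C57BL/6 mice, either wild type or with a knockout of Atf4 specific to the liver (LsATF4-/-). Atf4 encodes a transcription factor produced under endoplasmic reticulum (ER) stress. Mice of both genotypes received an intraperitoneal injection of 1 mg/kg tunicamycin or of 0.3% DMSO and were sampled 6 h later. Tunicamycin inhibits the addition of N-linked sugars to new proteins, which then misfold in the ER. Each of the 4 combinations of genotype and injection had 3 libraries. The study asked what loss of ATF4 does to liver transcripts without stress and under tunicamycin. The age and sex of the mice, the Cre driver and the deleted exons are not given in these sources, and the labels do not say whether the libraries of a group came from separate animals, so p-values measure the spread between these libraries only. Per the labels, the DMSO-treated knockout libraries were run on lane 5 and all others on lane 4. A comparison with that group is therefore also one of lanes, in which the effects of both cannot be told apart.

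The targeted gene was measured only together with a neighbour. Atf4 lies in a locus merged with the calcium channel gene Cacna1i, which the authors' deposited table lists at 46.9 FPKM in wild-type liver and 22.8 in knockout liver with DMSO (log2 fold change -1.04, q 0.270) and at 356 and 114 FPKM with tunicamycin (-1.64, q 0.000396). The value is that of the merged locus and says nothing of the deleted exons. The knockout tunicamycin group held transcripts of other tissues. The summed FPKM of 9 markers of adrenal cortex, found at 8 loci, was 1289 in it and between 6.77 and 23.5 in the other 3 groups, and that of 5 markers of adrenal medulla was 116 against at most 0.204. For skeletal muscle 8 markers summed to 324 FPKM against at most 4.74, and 8 of fat to 285 against at most 33.2. The values are pooled, so no library could be left out, and the part of these tissues in the values of this group was not tested. In tests of knockout against wild type with tunicamycin, 3 of 8 loci of adrenal cortex and 2 of 5 of adrenal medulla were called higher. So were 6 of 8 of muscle and 3 of 8 of fat, beside 3.73% of all 14919 tested loci.

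Hepatocytes package triglyceride into very low density lipoprotein (VLDL) inside the ER. Apolipoprotein B is the structural protein of the particle and is loaded with lipid as it enters the ER lumen by microsomal triglyceride transfer protein, the particle then leaves in ER-derived vesicles, and small exchangeable apolipoproteins on its surface later set how fast lipoprotein lipase and hepatic receptors remove it. Apolipoproteins A-I and A-II are instead the main proteins of high density lipoprotein (HDL).

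Of the 10 genes, 6 lie in clusters of apolipoprotein genes. In the mm9 positions of the authors' deposited table, Apoa1 (46036712 to 46038552), Apoc3 (46041132 to 46043719), Apoa4 (46048834 to 46051541) and Apoa5 (46076690 to 46080002) stood side by side on chromosome 9, within 43291 bases. Apoc2 (20256927 to 20263290) and Apoe (20281592 to 20284515) stood on chromosome 7 with Apoc4 and Apoc1 between them, within 27589 bases. Apoa2 was on chromosome 1 (173155066 to 173156512), Mttp on chromosome 3 (137752818 to 137806352), Apob on chromosome 12 (7984449 to 8023646) and Apom on chromosome 17 (35265938 to 35269062).

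Promoter sequences from RefSeq matched 9 of the 10 genes, in 13 windows that reach from 250 bases before to 50 after each start. The 100 bases before the start are shown for the VLDL scaffold Apob and its loading factor Mttp. They are also shown for 3 genes of the chromosome 9 cluster, Apoa1, Apoa4 and Apoa5. They are in the GRCm38.p6 build, on the plus strand except for Mttp, and capitals mark the letters TATAAA: Apoa1 at chr9:46228530-46228629, Apoa4 at chr9:46240744-46240843, Apoa5 at chr9:46268508-46268607, Apob at chr12:7977577-7977676 and Mttp at chr3:138143419-138143518 on the minus strand.
Apoa1: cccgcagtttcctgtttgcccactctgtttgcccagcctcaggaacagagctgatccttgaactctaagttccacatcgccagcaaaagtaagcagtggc
Apoa4: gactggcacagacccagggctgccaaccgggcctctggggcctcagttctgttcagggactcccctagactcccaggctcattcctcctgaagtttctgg
Apoa5: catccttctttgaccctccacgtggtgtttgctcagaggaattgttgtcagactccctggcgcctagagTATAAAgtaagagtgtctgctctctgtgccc
Apob: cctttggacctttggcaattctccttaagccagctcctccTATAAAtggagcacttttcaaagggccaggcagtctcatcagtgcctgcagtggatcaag
Mttp: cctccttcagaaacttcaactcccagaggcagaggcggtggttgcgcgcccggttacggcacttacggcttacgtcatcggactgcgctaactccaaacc

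The capitals begin 31 bases before the start in Apoa5 and 60 bases before it in Apob, and they are missing from the shown stretches of Apoa1, Apoa4 and Mttp. Over the whole windows, on either strand, TATAAA occurred in 4 of the genes (Apoa2, Apoa5, Apob and Apoe) and in 13.6% of all 32851 RefSeq promoter windows of mouse. Letters of the C/EBP-ATF element that ATF4 is known to bind, searched as TGATGCAA and as TGATGNAAT, which overlap where both match, occurred in 0 of the 13 windows and in 0.895% and 0.965% of all windows. The ER stress element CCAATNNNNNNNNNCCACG was in 0 of the 13 and in 0.119% of all, and the XBP1 and ATF6 letters TGACGTGG, which can overlap the end of that element on the other strand, were in 0 of the 13 and in 0.676% of all. Letters for the hepatocyte factor HNF4A (CAAAGTCCA) and for a direct repeat bound by nuclear receptors (AGGTCANAGGTCA) were in 0 of the 13 too, and in 0.475% and 0.0396% of all windows. A match is a string of letters, and a missing match says only that these letters are not in the window.

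In the authors' deposited table the level of a gene is 1 FPKM value per group (fragments scaled by transcript length and by the mapped fragments of the library), pooled from 3 libraries. No spread between libraries can therefore be given, and which neighbours in an order of levels differ beyond it cannot be said. With DMSO in wild-type liver the 10 genes together held 6.57% of the summed FPKM of all loci in the authors' deposited table, and 3 of them (Apoa2, Apoe and Apoa1) were among the 10 most abundant loci. Their share was 3.72% after tunicamycin, and in knockout liver it was 5.90% with DMSO and 3.40% after tunicamycin. The shares are of a sum that leaves out loci listed at 0, among them albumin, and in both DMSO groups the Serpina1b locus.

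From the highest to the lowest level with DMSO in wild-type liver the order was Apoa2, Apoe, Apoa1, Apoc3, Apob, Apoa5, Apom, Apoc2, Mttp and Apoa4. The order was the same with DMSO in knockout liver. With tunicamycin it differed at the same places in both genotypes: Apoe stood above Apoa2, and Apom above Apoa5. Apoa2 was at 1.12 times the FPKM of Apoe with DMSO and at 0.753 times with tunicamycin in wild-type liver, and at 1.12 and 0.754 times in knockout liver, from the authors' deposited table. Apoa5 was at 1.70 times the FPKM of Apom with DMSO and at 0.701 times with tunicamycin in wild-type liver, and at 1.56 and 0.728 times in knockout liver, from the same authors' deposited table.

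**Figure D1:**
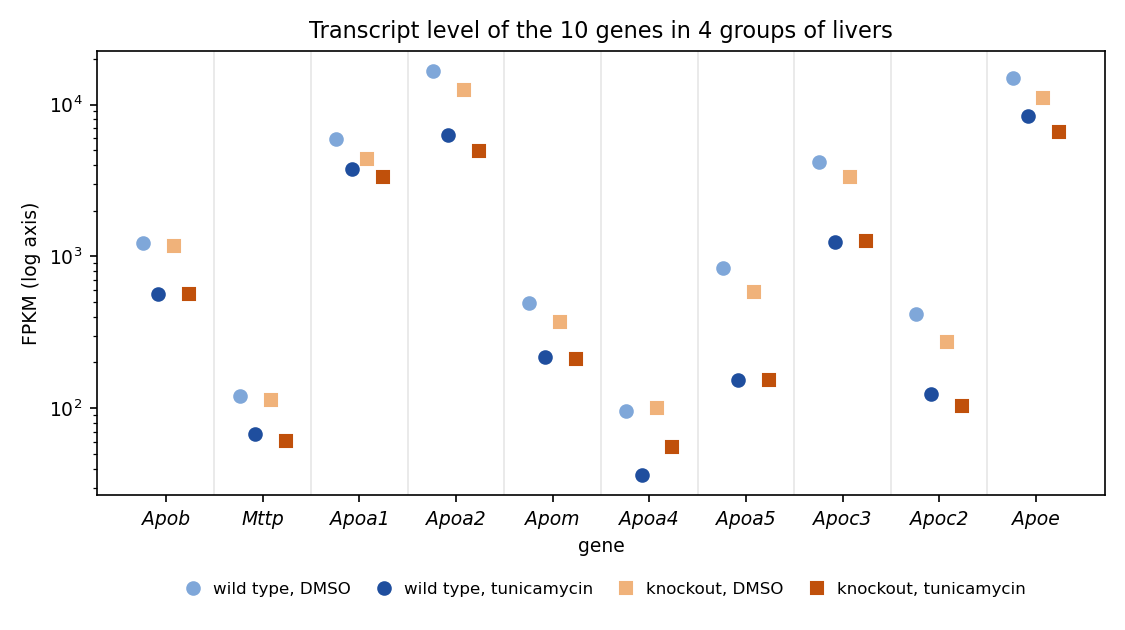
FPKM of the 10 genes (log axis) in 4 groups of livers, 1 pooled value of 3 libraries per point, circles for wild type and squares for the knockout, dark for tunicamycin. For each gene both dark points lie below both light points, from Apoa2 (16645 FPKM in wild-type liver with DMSO, 6302 with tunicamycin) down to Apoa4 (95.7 and 36.1 FPKM).

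Of the 10 genes, 7 were lower 6 h after tunicamycin in wild-type liver, and none was higher. A gene was called lower or higher when the q-value of the authors' deposited table was under 0.05. The background is 19% of all 14998 tested loci called lower in wild-type liver, and 46.2% of the 902 tested loci with a mean of at least 100 FPKM. Of the 10 genes, Apoa4 and Mttp do not reach that mean. In knockout liver the same 7 genes (Apoa2, Apoa4, Apoa5, Apoc2, Apoc3, Apom and Mttp) were lower, beside 14.8% of all 15534 tested loci and 40.2% of the 900 abundant ones. The median log2 fold change of the 10 genes was -1.29 in wild-type liver and -0.98 in knockout liver, and over all tested loci it was -0.02 and 0.01. All 10 values were negative in both genotypes, and Apoa1, Apob and Apoe were not called in either.
Levels in a whole liver do not tell fewer cells of a type from less RNA per cell. Markers of hepatocytes other than these genes were called lower at 3 of 7 tested loci in wild-type liver and 4 of 7 in knockout liver. The summed FPKM of these markers was 17371 and 12919 in wild-type liver and 13970 and 9770 in knockout liver, DMSO before tunicamycin. These sums do not cover the same loci. The Serpina1b locus, whose test failed for too many fragments, was listed at 0 with DMSO in both genotypes. With tunicamycin it was at 2221 and 1881 FPKM, wild type first, so each pair of sums understates the fall. Of 8 markers of endothelial cells 3 were called higher and 0 lower in wild-type liver (median log2 0.49, summed FPKM 90.3 and 114), and 0 were called higher and 4 lower in knockout liver (median -0.58, summed FPKM 138 and 83.6). Their part in the values of the 10 genes was not tested.

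Apob, the scaffold of VLDL, stood in the authors' deposited table at 1219 FPKM in wild-type liver with DMSO and 562 with tunicamycin, and at 1173 and 565 FPKM in knockout liver. The tunicamycin values of both genotypes were less than 3 FPKM apart, and both lay far under the DMSO values. The log2 fold change was -1.12 in wild-type liver (q 0.266) and -1.05 in knockout liver (q 0.351) in the authors' deposited table, and neither was called. The approximate 95% intervals, from -2.81 to 0.57 and from -2.82 to 0.71, hold both no change and a fall of more than 2 log2 units. Apob had one of the least certain fold changes of the abundant loci: its standard error in wild-type liver, recovered from the deposited test statistic, was 0.86, against a median of 0.23 over 900 loci of at least 100 FPKM, and it was larger than that of 98.6% of them. In knockout liver it was 0.90. The deposited p-values of 0.106 and 0.159 correspond to smaller errors, 0.69 and 0.75, so the recovered intervals of Apob may be too wide. With the smaller errors the intervals are -2.47 to 0.24 and -2.52 to 0.41.

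Mttp loads lipid onto apolipoprotein B and is required for the particle to form. The authors' deposited table gives 120 FPKM in wild-type liver with DMSO and 67.5 with tunicamycin, and 113 and 60.4 FPKM in knockout liver. It was the least abundant of the 10 after Apoa4, and its fall was measured more precisely than that of Apob, with a standard error of 0.21 in both genotypes. Mttp fell in both genotypes (log2 -0.83 and -0.90, q 0.000396 in each, per the authors' deposited table), which leaves 56.3% and 53.7% of the DMSO level. The value of q 0.000396 is the smallest in the table.

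Apoa1 encodes the main protein of HDL and activates the cholesterol-esterifying enzyme LCAT. It was listed at 5924 FPKM in wild-type liver with DMSO, 3759 with tunicamycin, and 4353 and 3320 FPKM in knockout liver, per the authors' deposited table. The log2 fold changes were the smallest of the 10, -0.66 in wild-type liver (q 0.242, 95% interval -1.42 to 0.10) and -0.39 in knockout liver (q 0.481, -1.08 to 0.30), and the authors' deposited table calls neither.
Apoa2, which encodes the other main HDL protein, was at 16645 FPKM in wild-type liver with DMSO, the highest value of any of the 10 in any group, and at 6302 with tunicamycin, with 12425 and 4956 FPKM in knockout liver (authors' deposited table). Its log2 fold changes were -1.40 in wild-type (q 0.00449) and -1.33 in knockout liver (q 0.00423) in the authors' deposited table. With DMSO Apoa2 stood at 2.81 and 2.85 times the FPKM of Apoa1 in wild-type and knockout liver, and with tunicamycin at 1.68 and 1.49 times. The difference between both genes' fold changes was not tested.

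Apom encodes apolipoprotein M, the carrier of sphingosine-1-phosphate on HDL. It stood at 496 FPKM with DMSO and 218 with tunicamycin in wild-type liver, and at 372 and 211 FPKM in knockout liver, in the authors' deposited table. The tunicamycin values of both genotypes were nearly the same, and the DMSO values differed by an amount that was not called. Apom fell in both (log2 -1.19 and -0.82, q 0.000396 in each, authors' deposited table).
Apoa4 encodes apolipoprotein A-IV, a protein of HDL and of triglyceride-rich particles that the intestine makes in large amounts and the mouse liver in smaller and variable ones. Per the authors' deposited table it was at 95.7 FPKM with DMSO and 36.1 with tunicamycin in wild-type liver, and at 100.4 and 55.3 FPKM in knockout liver. The DMSO values of both genotypes were close, and the tunicamycin value was higher in knockout liver. Apoa4 fell in both (log2 -1.41 and -0.86, q 0.000396 in each, authors' deposited table).

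The genes that control clearance of triglyceride, Apoa5, Apoc2 and Apoc3, had the 3 most negative fold changes of the 10 in both genotypes. Apoa5 encodes apolipoprotein A-V, a scarce plasma protein that promotes triglyceride hydrolysis by lipoprotein lipase. It dropped from 841 to 153 FPKM in wild-type liver and from 579 to 154 FPKM in knockout liver, per the authors' deposited table. Its log2 fold changes of -2.46 in wild-type liver (95% interval -2.96 to -1.96) and -1.91 in knockout liver (-2.40 to -1.42) were the largest of the 10 in either genotype, and leave 18.1% and 26.6% of the DMSO level (q 0.000396 in both, authors' deposited table).
Apoc2 encodes the cofactor that lipoprotein lipase requires. It was at 417 FPKM with DMSO and 125 with tunicamycin in wild-type liver, and at 273 and 104 FPKM in knockout liver, in the authors' deposited table. Apoc3 encodes an inhibitor of the same lipase and of particle uptake by the liver. It was at 4193 and 1243 FPKM in wild-type liver and at 3329 and 1257 in knockout liver, in the authors' deposited table.
The fold changes of the cofactor and the inhibitor were nearly equal. The log2 fold changes in wild-type liver were -1.74 for Apoc2 and -1.75 for Apoc3, and in knockout liver -1.39 and -1.41, all with q 0.000396 in the authors' deposited table. Apoc3 was at 10.1 times the FPKM of Apoc2 with DMSO and 9.97 times with tunicamycin in wild-type liver, and at 12.2 and 12.1 times in knockout liver. Apoc3 was at 4.98 times the FPKM of Apoa5, which acts in the opposite direction on the lipase, with DMSO and at 8.15 times with tunicamycin in wild-type liver, and at 5.75 and 8.17 times in knockout liver.

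Apoe encodes the ligand by which remnant particles bind LDL receptor family members. It was at 14863 FPKM with DMSO and 8365 with tunicamycin in wild-type liver, and at 11050 and 6573 FPKM in knockout liver, per the authors' deposited table. The log2 fold changes of -0.83 in wild-type liver (q 0.506, 95% interval -2.30 to 0.64) and -0.75 in knockout liver (q 0.435, -1.90 to 0.40) were not called in the authors' deposited table. The fold change of Apoe in wild-type liver was as large as that of Mttp, which was called: the recovered standard error was 0.75 for Apoe and 0.21 for Mttp. The standard error of Apoe was larger than that of 97.8% of the abundant loci in wild-type liver and of 94.9% in knockout liver.

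**Figure D2:**
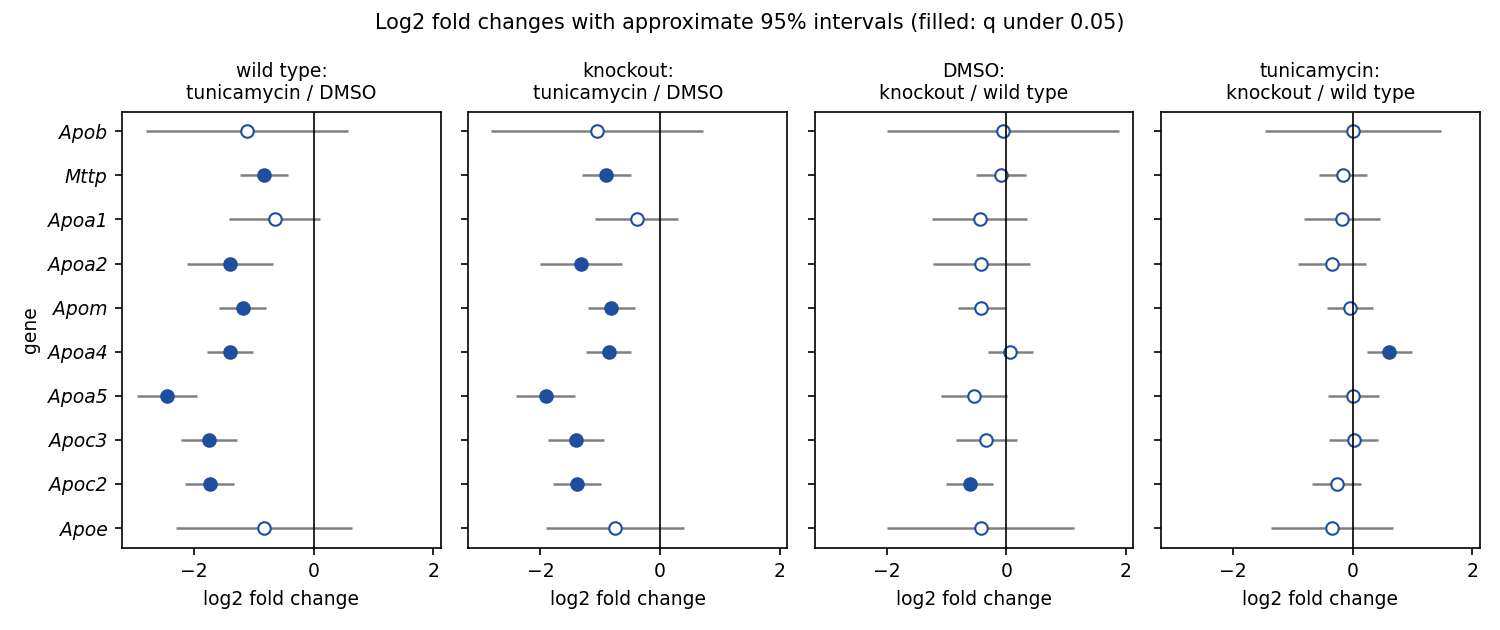
Deposited log2 fold changes (x axis) of the 10 genes in 4 comparisons, with approximate 95% intervals recovered from the deposited test statistics as lines, and filled points where q is under 0.05. In each tunicamycin comparison 7 points are filled, all left of 0, and 1 in each comparison of genotypes: Apoc2 (-0.61) with DMSO and Apoa4 (0.61) with tunicamycin. The lines of Apob and Apoe are the widest.

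Of the 7 genes that fell in wild-type liver, 6 fell by at least 2-fold, as did 11.3% of all tested loci and 25.1% of the abundant ones. In knockout liver 4 of the 7 did (Apoa2, Apoa5, Apoc2 and Apoc3), as did 8.33% of all tested loci and 17.1% of the abundant ones. Whether the responses differ was tested on the difference itself, knockout minus wild type, with the recovered standard errors and an adjustment by Benjamini-Hochberg over 14510 loci. It was called for 0 of the 10 genes and for 1.03% of all loci tested. At an unadjusted p under 0.05 there was 1 gene, Apoa4, with a difference of 0.54 (SE 0.27, p 0.0470, adjusted p 0.924). The difference was positive, a smaller fall in knockout liver, for 9 of the 10, and negative for Mttp (-0.07, 95% interval -0.64 to 0.51). The share of all loci with a positive difference was not counted, so this count has no background beside it. The 10 signs come from the same libraries and are not independent. The median over the 10 was 0.31, and over all loci tested 0.04. For Apoa5 it was 0.55 (95% interval -0.15 to 1.25, adjusted p 1.00), for Apom 0.37 (-0.18 to 0.92), and for Apoc2 and Apoc3 0.35 each (-0.22 to 0.92 and -0.31 to 1.00). These intervals leave room for no difference and for one of about 2-fold. For Apob, at 0.06, the interval was -2.38 to 2.51, from the recovered errors that may be too wide for this gene. The knockout response rests on the DMSO group of lane 5.

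With DMSO, most of the 10 genes had negative log2 fold changes between knockout and wild type, and 1 was called. Apoc2 was lower in knockout liver with DMSO (417 against 273 FPKM, log2 -0.61, q 0.0149, authors' deposited table). The background is 1.47% of all 14788 tested loci called lower and 4.77% of 902 abundant loci. The call of Apoc2 was lost when p-values were adjusted within this comparison alone (adjusted p 0.221). With that same adjustment its log2 fold change was -0.52 (adjusted p 0.338) with all loci recentred on their median and -0.40 (adjusted p 0.482) when the groups were scaled without their most abundant loci. Of the 10 log2 fold changes 9 were negative, but those of Apob and Mttp turned positive under both rescalings. The median was -0.42, against -0.07 over all tested loci.
Apoa5 and Apom were the nearest to a call after Apoc2. Apoa5 had a log2 fold change of -0.54 (95% interval -1.09 to 0.01, q 0.164) and Apom one of -0.42 (-0.81 to -0.02, q 0.130), in the authors' deposited table. Apoa1, Apoa2 and Apoe had nearly equal values of -0.44, -0.42 and -0.43 with q-values of 0.509, 0.536 and 0.802, and Apoc3 had -0.33 (q 0.409), in the authors' deposited table. Apob (-0.06, q 0.977), Mttp (-0.09, q 0.838) and Apoa4 (0.07, q 0.870) stood closest to 0 in the authors' deposited table, the first with a standard error of 0.99. The markers of endothelial cells moved in the same comparison: 7 of 8 were called higher in knockout liver, beside 1.39% of all tested loci, with a summed FPKM of 90.3 in wild-type liver and 138 in knockout liver, and 3 of 8 markers of stellate cells were called higher. With p-values adjusted within the comparison, 3 of the 7 endothelial and 2 of the 3 stellate calls held. Their part in the lower values was not tested, and lane and genotype cannot be told apart here.

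With tunicamycin, where all libraries share lane 4, 1 of the 10 genes was called between genotypes. Apoa4 was higher in knockout liver, at 55.3 against 36.1 FPKM in wild type, by 0.61 on the log2 scale (95% interval 0.24 to 0.99, q 0.00798, authors' deposited table). With p-values adjusted within this comparison alone the call stayed only just under the threshold (adjusted p 0.0406). The part of RNA from other tissues in the knockout value was not tested. The background is 3.73% of all 14919 tested loci called higher and 0.332% of 903 loci with a mean of at least 100 FPKM, a level that Apoa4 itself does not reach. The other 9 were not called, and 6 of all 10 values were negative; that of Apom turned positive under both rescalings. The levels of Apoa5 (153 and 154 FPKM, log2 fold change 0.01), Apoc3 (1243 and 1257, 0.02), Apom (218 and 211, -0.04) and Apob (562 and 565, 0.01) were the closest between genotypes, wild type first, in the authors' deposited table. Their 95% intervals were -0.42 to 0.44, -0.40 to 0.43, -0.43 to 0.34 and -1.47 to 1.48, so a difference of 2-fold lies outside them for 3 of the 4 and inside for Apob. Apoa2 (-0.35, q 0.457), Apoe (-0.35, q 0.729), Apoc2 (-0.26, q 0.415), Apoa1 (-0.18, q 0.779) and Mttp (-0.16, q 0.658) made up the rest, per the authors' deposited table. The median of the 10 was -0.10, against -0.04 over all tested loci.

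In every group only 2 of 8 markers of the intestinal lining, where Apoa4 is also made, reached 1 FPKM, Fabp2 and Anpep. Among the others, Sis and Alpi were listed at 0 in all 4 groups and Lct was at most 0.00786 FPKM. Fabp2 and Anpep, both expressed by liver as well, were lower with tunicamycin in each genotype. The part of intestinal RNA in the Apoa4 values was not tested.

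**Figure D3:**
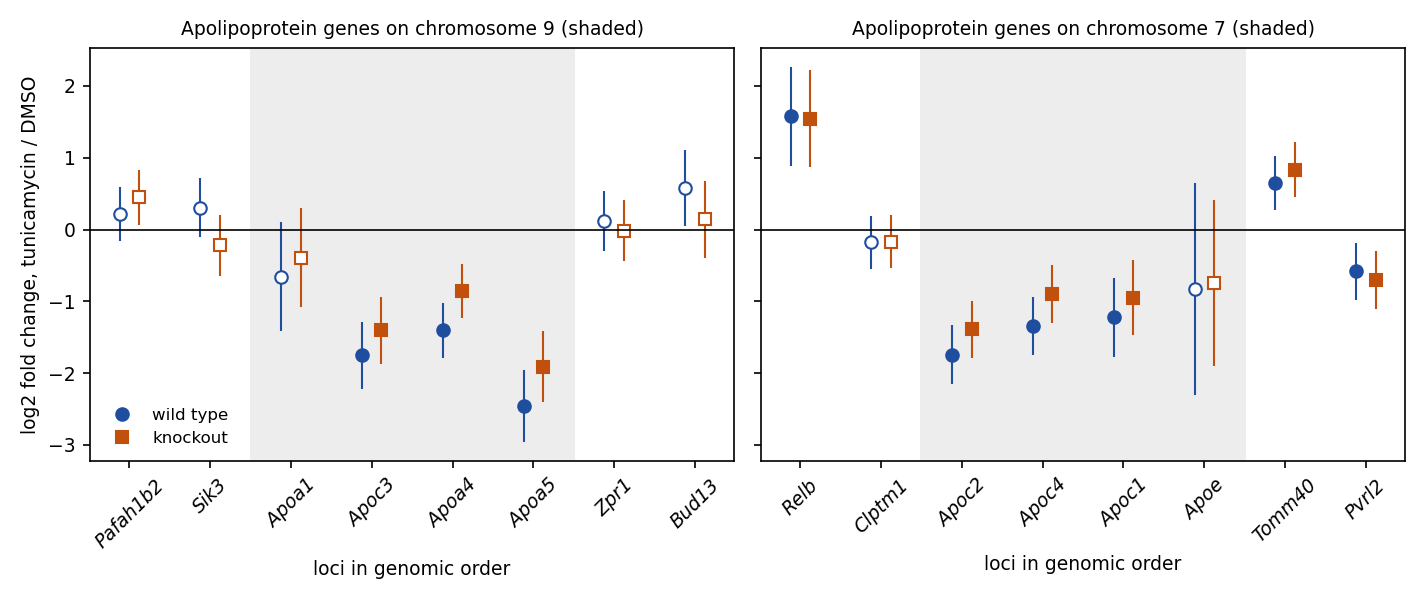
Log2 fold change with tunicamycin (y axis) of loci in genomic order around the apolipoprotein genes of chromosome 9 and of chromosome 7 (shaded), circles for wild type, squares for the knockout, lines for approximate 95% intervals, filled where q is under 0.05. On chromosome 9 the shaded genes lie below 0 (Apoa5 at -2.46 in wild-type liver) and 0 of 4 flanking loci is filled, while on chromosome 7 the flanking loci Relb and Tomm40 lie above 0.

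On chromosome 9 Apoc3, Apoa4 and Apoa5 were called lower, and neither Apoa1, at one edge of the apolipoprotein cluster, nor any of the 4 flanking loci shown was called. The cluster was not tested against its flanks. From one end to the other the log2 fold changes in wild-type liver were -0.66 for Apoa1, -1.75 for Apoc3, -1.41 for Apoa4 and -2.46 for Apoa5. The neighbours Sik3, a kinase gene whose annotated end lies 4285 bases from the cluster, and Zpr1, a zinc finger gene 1079 bases from its other edge, had values of 0.30 (q 0.336) and 0.12 (q 0.777) in wild-type liver and of -0.22 (q 0.544) and -0.01 (q 0.977) in knockout liver, in the authors' deposited table. The next loci out, Pafah1b2 and Bud13, were not called either. On chromosome 7 the lipoprotein genes Apoc4 and Apoc1, which lie between Apoc2 and Apoe, fell too, with log2 fold changes of -1.34 and -1.22 in wild-type and of -0.90 and -0.95 in knockout liver, per the authors' deposited table. Beyond Apoe, Tomm40, which encodes the channel of the mitochondrial import complex, rose by 0.65 and 0.84. The flanking gene Clptm1 was not called (-0.18 and -0.17), Relb, an NF-kappaB subunit gene, rose by 1.58 and 1.54, and Pvrl2 fell (-0.58 and -0.70), wild type first, all in the authors' deposited table.
Around the clusters and the single genes together, 24 flanking loci were taken. Of these, 6 were called lower and 6 higher in wild-type liver, and 5 lower and 5 higher in knockout liver. Over all tested loci 19% were lower and 18.1% higher in wild-type liver, and 14.8% and 18.1% in knockout liver. Single genes had neighbours that moved with them and against them. Next to Apoa2, the nuclear receptor gene Nr1i3 (CAR) fell (log2 fold changes -3.54 in wild-type and -3.23 in knockout liver), as did the locus Tomm40l, which has the same coordinates (-4.31 and -4.08; q 0.000396 in each, authors' deposited table). How overlapping loci shared reads is not given, so these 2 are uncertain. Trmt10a, a tRNA methyltransferase gene 149 bases from Mttp, rose by 1.30 and 1.11 while Mttp fell (q 0.000396 in each, authors' deposited table). D17H6S53E, 138 bases from Apom, fell in wild-type liver (log2 -0.79, q 0.0301) and was not called in knockout liver (-0.55, q 0.156), in the authors' deposited table.

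Most tested genes of a list of other apolipoproteins and plasma proteins were lower as well. The list goes partly by name, with Apoo, Apool and the Apol genes in it. Whether each product is carried on lipoproteins was not examined. Of the 19 listed genes, 16 were tested in wild-type liver and 14 fell with tunicamycin. In knockout liver 17 were tested and 15 fell. None rose in either, and the medians were -1.22 and -1.48, against -0.02 and 0.01 over all tested loci. The background for this list and those that follow is 19% lower and 18.1% higher over all tested loci in wild-type liver, and 14.8% lower and 18.1% higher in knockout liver. Apon, an apolipoprotein gene that is intact in rodents, had the largest fall, from 245 to 29.2 FPKM in wild-type liver and from 206 to 31.5 in knockout liver (log2 -3.07 and -2.71, authors' deposited table). The locus of Apol7a, merged with Apol7b, fell as well (log2 -2.86 and -2.40, authors' deposited table). Apol9b (log2 -2.05 and -1.76) and Saa2, an acute-phase apolipoprotein (-1.52 and -2.28), fell in both genotypes (authors' deposited table). With DMSO 3 were higher in knockout liver, Saa1 (133 and 273 FPKM, log2 1.04), Lcn2 (31.7 and 53.6, 0.76) and Saa2 (0.60), and Apol9b was lower (-0.77), per the authors' deposited table. The call of Saa2 was lost with p-values adjusted within the comparison (adjusted p 0.253), and the other 3 held. With tunicamycin 0 of 17 tested were called between genotypes. The Saa and Apol families hold close copies, and how reads were split among them is uncertain.

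Genes that build and export the particle did not move in 1 direction. Of 26 tested genes of lipoprotein assembly and ER export, Mttp among them, 9 rose and 6 fell in wild-type liver, and 9 rose and 9 fell in knockout liver, with medians of 0.08 and 0.01. Sec24d, a cargo adaptor of the COPII vesicle coat, rose from 32.4 to 147 FPKM in wild-type liver and from 28.0 to 129 in knockout liver (log2 2.18 and 2.20, authors' deposited table). Tmem41b, a lipid scramblase of the ER, rose by 1.76 and 1.67 on the log2 scale in the authors' deposited table. P4hb, which encodes protein disulfide isomerase, the small subunit that pairs with the Mttp product, rose from 645 to 2018 FPKM in wild-type liver (log2 1.65) and from 597 to 1652 in knockout liver (1.47, authors' deposited table). The genes of both subunits of the transfer protein thus moved in opposite directions in each genotype. Mcfd2, a cargo receptor subunit, rose in both (log2 1.51 and 1.50, authors' deposited table). Sar1b, the GTPase that starts COPII coats on lipoprotein cargo, fell with tunicamycin in both genotypes (log2 -1.11, q 0.000396, in wild-type and -0.56, q 0.0253, in knockout liver, authors' deposited table). It was lower in knockout liver with DMSO (211 and 144 FPKM, log2 -0.55, q 0.0286, authors' deposited table), and the sorting receptor gene Sort1, under the level set for named genes, was higher (2.39 and 3.76 FPKM, log2 0.65). Both calls with DMSO were lost with p-values adjusted within the comparison (adjusted p 0.330 and 0.242). No gene of the list was called between genotypes with tunicamycin.

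The enzyme complex that edits Apob mRNA, and so sets the ratio of the long and short protein forms, changed in part. Of 6 genes 2 rose and 1 fell in wild-type liver, and 2 rose and 2 fell in knockout liver. Its RNA-binding cofactor gene A1cf fell from 64.4 to 40.7 FPKM in wild-type liver (log2 -0.66) and from 49.6 to 27.6 in knockout liver (-0.85), in the authors' deposited table. Between genotypes with tunicamycin it was lower in knockout liver (log2 -0.56, q 0.0321, authors' deposited table), a call lost with p-values adjusted within the comparison (adjusted p 0.143). The RNA-binding protein genes Syncrip (1.10 and 0.86) and Hnrnpab (0.71 and 0.65) rose with tunicamycin in both genotypes, wild type first, in the authors' deposited table. Chosen after its values were seen, Apobec1, the gene of the editing enzyme itself, was not called with tunicamycin in either genotype. It was at 11.1 and 12.8 FPKM in wild-type liver (q 0.574) and at 11.3 and 12.4 in knockout liver (q 0.754), DMSO first, in the authors' deposited table. The values are per locus and do not show the edited base.

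Of 14 tested genes of receptors that take up the particles 7 fell and 2 rose in wild-type liver, and 7 fell and 3 rose in knockout liver. Lrp1, a remnant receptor that binds apolipoprotein E, fell from 120 to 16.8 FPKM in wild-type liver and from 133 to 18.2 in knockout liver (log2 -2.84 and -2.87, authors' deposited table). Sulf2, a sulfatase that trims heparan sulfate, fell in both (log2 -1.93 and -1.21), as did Sdc1, the heparan sulfate proteoglycan that binds remnants (-1.36 and -0.83), in the authors' deposited table. Scarb1, the HDL receptor, was not called in wild-type liver (75.9 and 59.5 FPKM, q 0.247) and rose in knockout liver (56.2 to 128 FPKM, log2 1.19), per the authors' deposited table. With tunicamycin it was higher in knockout liver (log2 1.11, q 0.00171, authors' deposited table). Scarb1 is also strongly expressed in adrenal cortex, whose markers were high in that group, and their part in its value was not tested.

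Of 14 tested genes of lipases, their activators and inhibitors, 7 fell and 2 rose in wild-type liver, and 3 fell and 1 rose in knockout liver, beside 19% and 14.8% lower and 18.1% higher in each over all tested loci. Lipg, the endothelial lipase that acts on HDL, had the largest fall, from 10.1 to 0.193 FPKM in wild-type liver and from 11.2 to 0.256 in knockout liver (log2 -5.71 and -5.45, authors' deposited table). Lpl, the lipase that Apoc2, Apoc3 and Apoa5 act on, rose from 7.43 to 11.9 FPKM in wild-type liver and from 6.28 to 28.5 in knockout liver (log2 0.68 and 2.18, authors' deposited table). It is a gene of fat and muscle, whose markers were high in the second group, and their part in its value was not tested. Angptl4, an inhibitor of Lpl, rose with tunicamycin in wild-type liver from 67.4 to 104 FPKM (log2 0.63, q 0.00868) and was not called in knockout liver (46.8 and 58.3 FPKM, 0.32, q 0.279), in the authors' deposited table. It was lower in knockout liver with DMSO (-0.53) and with tunicamycin (-0.84), in the authors' deposited table. The call with DMSO was lost with p-values adjusted within the comparison (adjusted p 0.338), and that with tunicamycin held. Of 8 tested genes of HDL formation 3 fell in each genotype, and 1 rose in knockout liver, Scarb1. Bmp1, a protease that can cleave the propeptide of apolipoprotein A-I, had log2 fold changes of -1.05 and -1.03, and Lcat, which Apoa1 activates, of -0.62 and -0.57, wild type first, in the authors' deposited table.

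Of 27 tested transcription factors known to act on apolipoprotein genes, 15 fell and 3 rose in wild-type liver, and 15 of 28 fell and 1 rose in knockout liver, beside 19% and 14.8% lower and 18.1% higher in each over all tested loci. The medians were -0.86 and -0.69. Onecut1 (HNF6) fell from 19.0 to 1.75 FPKM in wild-type liver and from 38.4 to 1.97 in knockout liver (log2 -3.44 and -4.29, authors' deposited table). Srebf1 fell in both genotypes (log2 -2.66 and -2.69), as did Cebpa (-2.56 and -1.84) and Nr0b2, the corepressor SHP (-2.07 and -2.86), in the authors' deposited table. Chosen after their values were seen, Ppara, the fatty acid receptor that raises Apoa5 and lowers Apoc3, fell in both (-2.07 and -2.14) in the authors' deposited table, and Creb3l3, which raises Apoa4, Apoa5 and Apoc2, was not called (-0.24 and -0.09). Rora, an orphan nuclear receptor gene also chosen after its values were seen, rose in both genotypes, from 10.7 to 53.2 FPKM in wild-type liver and from 10.4 to 38.3 in knockout liver (log2 2.31 and 1.88, q 0.000396 in each, authors' deposited table). Between genotypes with tunicamycin 3 of 28 were lower in knockout liver, beside 2.19% of all tested loci: Nr0b2 (-0.89), Mlxipl (-0.75) and Hnf4a (186 and 121 FPKM, -0.63, q 0.0339), per the authors' deposited table. None of the 3 calls held with p-values adjusted within the comparison (adjusted p 0.170, 0.0548 and 0.150). With DMSO Onecut1 (1.02) and the coactivator gene Ppargc1a (0.53, under the level set for named genes) were higher in knockout liver, in the authors' deposited table, and both calls were lost in the same way (adjusted p 0.131 and 0.425).

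**Figure D4:**
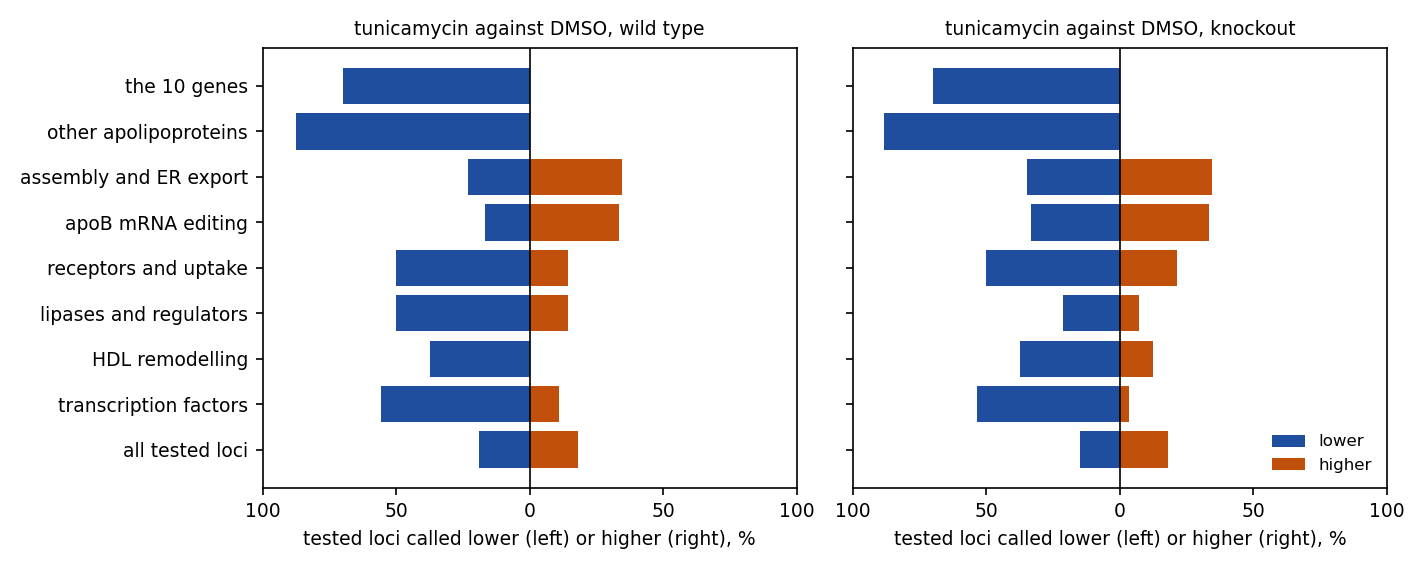
Share of tested loci called lower (bars to the left) and higher (bars to the right) with tunicamycin, in %, for the 10 genes, 7 lists of related genes and all tested loci, in both genotypes. The 10 genes and the other apolipoproteins have bars to the left only, and the assembly and export list has bars on both sides (9 higher and 6 lower of 26 in wild-type liver), beside 19% lower and 18.1% higher over all loci in wild-type liver.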

How the data were processed

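Poly(A) RNA was sequenced in 12 libraries of mouse liver after TRIzol extraction and TruSeq library preparation with ERCC spike-ins, per the labels' protocols. Per the submitters' processing notes, reads went through bcl2fastq, TopHat2 2.0.4, Cufflinks and Cuffdiff, with build mm9. Not given in the sources used here are the annotation, the normalization, and the treatment of strand and of multiply mapped reads. The authors deposited FPKM values of loci, 1 per group and pooled over its 3 libraries. For each of 6 comparisons they deposited log2 fold changes, test statistics (scores), p-values and q-values. Depth per library is unknown, and the pooled values allow no SD and no leaving out of a library.

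Of these, 4 comparisons were used, and the crossed ones were left out. A call is a deposited q under 0.05 with a valid test. The deposited q equalled a Benjamini-Hochberg adjustment over all 90828 tests within 5.29e-07. The standard error of a log2 fold change was recovered by dividing its size by the test statistic and by a factor that deposited p-values set for each comparison (1.73 or 1.74), and intervals from it are approximate. The difference of the responses was tested with these errors (normal, two-sided), a step tested on simulated data. Changes to the call and to the scaling were tried as alternatives. Adjusting the genotype calls of the listed genes within a comparison was added after seeing the data. Of 197 listed symbols in 7 pathway and 10 marker lists 193 matched. From each list the 3 called genes with the largest change and at least 5 FPKM in the higher group were named. Some items that this rule or the motif search covers are not reported here. The members and lists were chosen with earlier results of these data known. Promoters are RefSeq's, in another build than the loci. The tools were Python 3.11.15, numpy 2.4.6, pandas 2.3.3 and, for figures, matplotlib 3.10.9; scipy 1.17.1 gave the normal distribution.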

Additional observations from a re-analysis of the deposited data

How the results depend on the processing

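Both counts of 7 genes lower with tunicamycin held within 1.5 times under a q within the comparison, a q under 0.01, a minimum of 1 FPKM, recentring on the median and scaling without the most abundant loci. Of 28 recomputed counts over all comparisons whose reported value was above 0, 20 stayed within 1.5 times. With a change of at least 2-fold required, the genes lower in the knockout went from 7 to 4 and the 1 gene higher in the knockout under tunicamycin to 0. The 1 gene lower in the knockout with DMSO, Apoc2, went to 0 under each of these alternatives: q within the comparison, q under 0.01, at least 2-fold, at least 1 FPKM, recentring and rescaling. The last 3 also adjust p within the comparison, which alone ends the call. The log2 ratio of summed FPKM without the 14 most abundant loci, which rescaling subtracts, was -0.23 for tunicamycin in wild-type and -0.14 in knockout liver, and -0.21 and -0.13 for the genotypes with DMSO and with tunicamycin. Signs that turned, all uncalled, were Apob with DMSO (0.0373 recentred, 0.156 rescaled), Mttp with DMSO (0.00276 and 0.122) and Apom with tunicamycin (0.0134 and 0.0825). Of 120 tested values of single genes, 111 kept direction and side of the threshold, and 80 values under other pseudocounts, which have no test, kept their direction. No paired analysis was possible because the table pools the libraries of each group. Depth is unknown, and the wide errors of Apob and Apoe limit their comparisons.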

Other observations

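The uncalled genes of the 10 were not those of low level. Of the 4 with the highest FPKM in wild type with DMSO, Apoa2 and Apoc3 were called lower with tunicamycin, and Apoe and Apoa1 were not. The recovered standard errors in wild type ran from 0.19 for Apoa4, the least abundant, to 0.86 for Apob. That of Apoa4 was larger than that of 11% of the 900 abundant loci, and that of Apoa5 than that of 65.8%. Whether 1 library of a group carried the wide errors could not be examined in pooled values.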
